A study of Rattus norvegicus with 12 samples.

Results

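The Wnt ligands, their Frizzled and LRP receptors, their secreted antagonists and a few intracellular genes of the pathway were followed in rat kidneys after ischemia-reperfusion injury, in which the blood supply of an organ is stopped and then restored. Members were chosen by gene name alone: names that begin with Wnt, Fzd, Sfrp or Dkk (Dkkl1 included), Axin1 and Axin2, and the single names Lrp5, Lrp6, Lef1, Tcf7, Wif1, Frzb and Ctnnb1. They came to 45 of the 26442 genes on the array, with 53 of its 30367 probes. They comprised 18 Wnt ligands, 9 Frizzled receptors, 2 LRP co-receptors, 11 secreted antagonists or relatives of these, and 5 intracellular genes.

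The rats were females of the inbred strain F344, aged 10 weeks, and RNA of the left kidney was hybridised to single-colour arrays. The left kidney had been made ischemic on that side alone, and 4 rats were killed 3 days and 4 rats 7 days after the operation. A further 4 rats had a sham operation and were killed after 7 days. The sham rats thus match day 7 in time, and no sham kidney of day 3 was analysed here. The sources used here do not say whether the right kidney was left in place. The labels name no genetic change and no drug in any group.

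Wnt proteins are secreted lipid-modified ligands that bind Frizzled receptors on the cell surface. With the co-receptors Lrp5 and Lrp6 they hold off the destruction of beta-catenin, the product of Ctnnb1, which then enters the nucleus and acts with Tcf7, Lef1 and their relatives on target genes such as Axin2. Other ligands, Wnt5a and Wnt11 among them, are better known for signals that do not need beta-catenin. Secreted frizzled-related proteins (Sfrp1, Sfrp2, Sfrp4, Sfrp5 and Frzb) and Wif1 bind the ligands, while Dkk1, Dkk2 and Dkk4 bind the LRP co-receptors. In the developing mouse kidney Wnt9b, Wnt4 and Wnt11 take part in branching of the ureteric bud and in the formation of nephrons.

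A level is given as log2 of the background-subtracted intensity minus the 75th percentile of the same array, so 0 is the 75th percentile and -1 is 1 doubling below it. Before this step the 75th percentile was 714 ± 34.5 intensity units at day 3, 502 ± 60.9 at day 7 and 328 ± 72.6 in sham kidneys (SD, n = 4 each). It was thus 2.17 times higher at day 3 than in sham. A gene whose unscaled intensity is equal at day 3 and in sham therefore reads about 1.15 lower at day 3 on the scaled log2 axis. Each change below is set beside its unscaled ratio where this matters. This is the ratio of the background-subtracted intensity of the groups without scaling, taken from their means of log2 values. Proximal tubule markers averaged 4.04 to 4.27 in the sham kidneys, far above 0, and the arrays of a group correlated at 0.967 to 0.984 (day 3), 0.950 to 0.972 (day 7) and 0.942 to 0.967 (sham). In whole-kidney RNA, fewer cells of a type and less RNA per cell cannot be told apart. The sources used here do not say whether each array holds 1 rat, so the spread may include pooling or technical differences.

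The probes are designed sequences of 60 bases, and the values below are the brightness of these sequences. The first 30 bases, 5′ to 3′, are shown for the probes of the 9 genes with the clearest changes, with the place the file headers give on rat build rn4. Nothing is in capitals here, since no base is singled out.
Fzd4 (probe A_64_P147423, chr1:145957607-145957666, plus strand): cactttcctcattttgaaggaaaggatgca
Fzd1 (probe A_44_P170527, chr4:25998371-25998430, plus strand): ccggtacataggacctaaatttatctatgt
Fzd3 (probe A_64_P001000): gctgtggagagatgactgtctggtaagcat
Wnt5a (probe A_44_P481160, chr16:3799337-3799396, plus strand): ttcacatctagaaggcataagaactatttt
Wnt6 (probe A_64_P071451, chr9:74117575-74117634, plus strand): tcctcagaattactggggtggatgggtgag
Sfrp1 (probe A_64_P072953, chr16:73030329-73030388, minus strand): aagtgatgtaaatattccagttctctttgg
Sfrp2 (probe A_44_P503115, chr2:175486729-175486788, plus strand): ttttttcttcaaactaaatcattgtagcta
Dkk3 (probe A_64_P084198, chr1:169924663-169924722, minus strand): cacatagcaccgagtccctcttaaaagcct
Ctnnb1 (probe A_44_P526933, chr8:125985864-125986043, plus strand): ccaggaatgaaggcgtggcaacatatgcgg
The Ctnnb1 probe covers a longer stretch of the genome than its own length, and the files give no place for the Fzd3 probe. The files name the gene of a probe but not its exon or untranslated region.

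All 5 classes were detected in the kidneys, most of the receptors steadily and most of the ligands weakly or not at all. A probe was well above background on all 4 arrays of a group for 21 genes at day 3, 20 at day 7 and 22 in sham kidneys. On all 12 arrays this held for 17 of the 45 genes, beside 14652 of the 26442 genes on the array. On at least 1 array it held for 40 of the 45. Dkk1, Fzd9, Sfrp4, Wnt10b and Wnt16 were not above background on any array. Of the 18 ligands, 6 were above background on all 4 arrays at day 3, 5 at day 7 and 6 in sham. Of the 9 Frizzled receptors these numbers were 6, 6 and 5, and both LRP co-receptors were above background on all arrays.

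**Figure D1:**
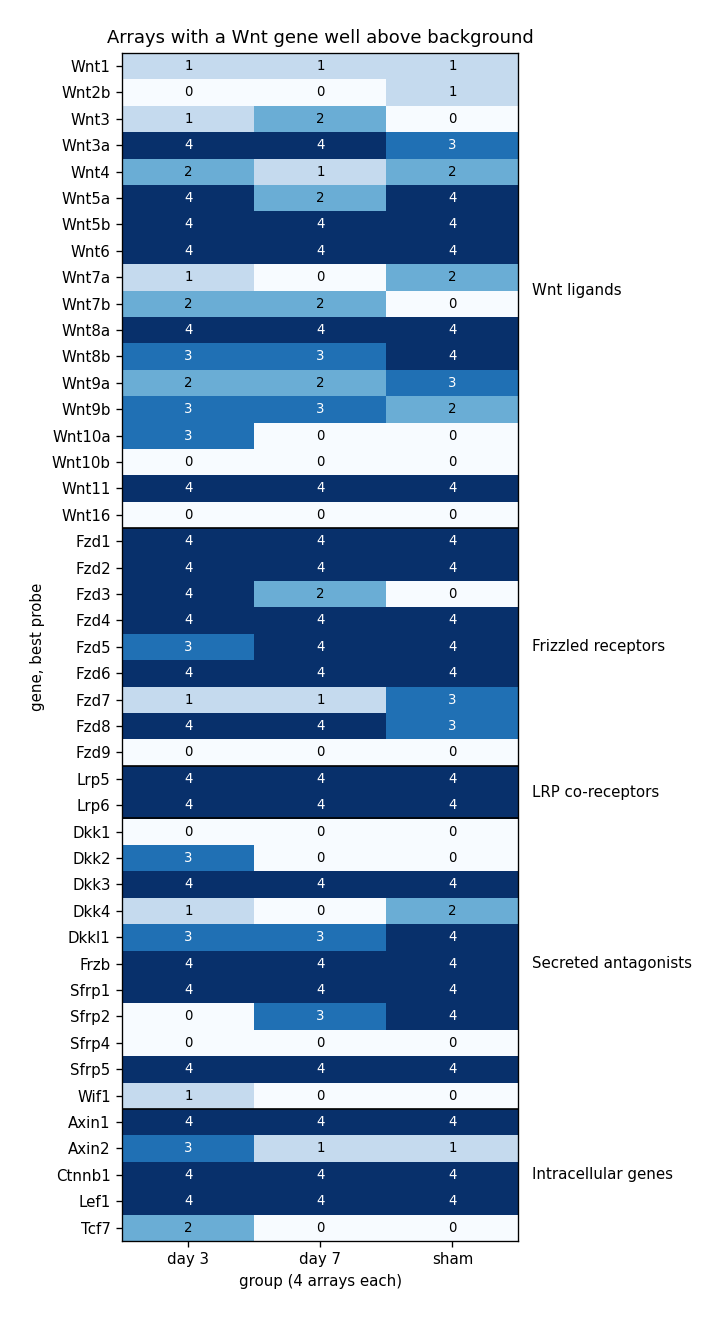
Number of arrays, of 4 in each group, on which the best probe of each of the 45 genes stood well above background, with genes down the page by class and groups across (day 3, day 7, sham). Sfrp2 has 0 arrays at day 3 and 4 in sham, while Fzd3 has 4 arrays at day 3 and 0 in sham.

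A gene was tested when it had a probe above background on every array of some group. This was so for 25 of the 45 genes: 7 ligands, 7 Frizzled receptors, both LRP co-receptors, 6 antagonists and 3 intracellular genes. Of all 26442 genes on the array, 18510 were tested. The other 20 genes were not tested. Fzd3 passed this filter only through day 3, Sfrp2, Dkkl1 and Wnt8b only through sham, and Wnt5a only through day 3 and sham. These 5 were admitted by groups in which they are higher, so values of the other groups against those groups are given below as descriptions, with no p. They are still among the counts of called genes. Fzd8 and Wnt3a passed only through day 3 and day 7. They were not called on the scaled axis, and their unscaled calls against sham are given with no p. No member spot was saturated, and 1 was set aside as an outlier (Fzd5, day 3 replicate 1), so the fit for Fzd5 had 3 values at day 3.

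At day 3 the receptor Fzd4 was lower than in sham, and the antagonists Sfrp1 and Dkk3, the receptor Fzd1 and beta-catenin (Ctnnb1) were higher. Relative to the 75th percentile and on the unscaled intensity alike, Fzd4, Sfrp1, Dkk3, Fzd1 and Ctnnb1 passed the test. Sfrp2 read lower and Fzd3 higher on both scales. The filter had admitted these genes by the group where they are high, so their calls are descriptions, though they are in the counts that follow. In all, 18 of the 25 tested genes passed an adjusted p of 0.05, which is 72%, beside 57.3% of all 18510 genes tested. The 5 higher members were 20% of those tested, beside 24.2% of all genes, and the 13 lower ones 52%, beside 33.1%. The median log2 difference of the 25 members was -0.68, and that of all genes -0.13. Of the 17 members above background on all 12 arrays, 14 passed (4 higher and 10 lower). This filter was chosen after seeing the data, and under it 60.4% of 14652 genes passed, 40% of them higher. With normexp background correction 4 members passed at day 3 (Sfrp1 and Ctnnb1 higher, Fzd4 and Wnt6 lower), beside 17.1% of all genes. None passed at day 7 or between the days, where 2 and 6 members had an unadjusted p under 0.05 in limma. When the spots below their local background, at most 25 on an array, were first left out, 20, 6 and 13 members passed under normexp.

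The other 11 lower members at day 3 were Wnt5b, Wnt6, Wnt8a, Wnt8b, Wnt11, Lrp5, Lrp6, Dkkl1, Frzb, Sfrp5 and Lef1. Their unscaled day 3 to sham ratios ran from 0.725 to 1.38, and none of the 11 passed without scaling. With no scaling between the arrays 13 of the 25 members passed, 11 of them higher and 2 lower, beside 66.9% of all genes, of which 93.3% were higher, and the median of all genes shifted to 1.02. Statements about these 11 genes are thus relative to the array's 75th percentile only.

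**Figure D2:**
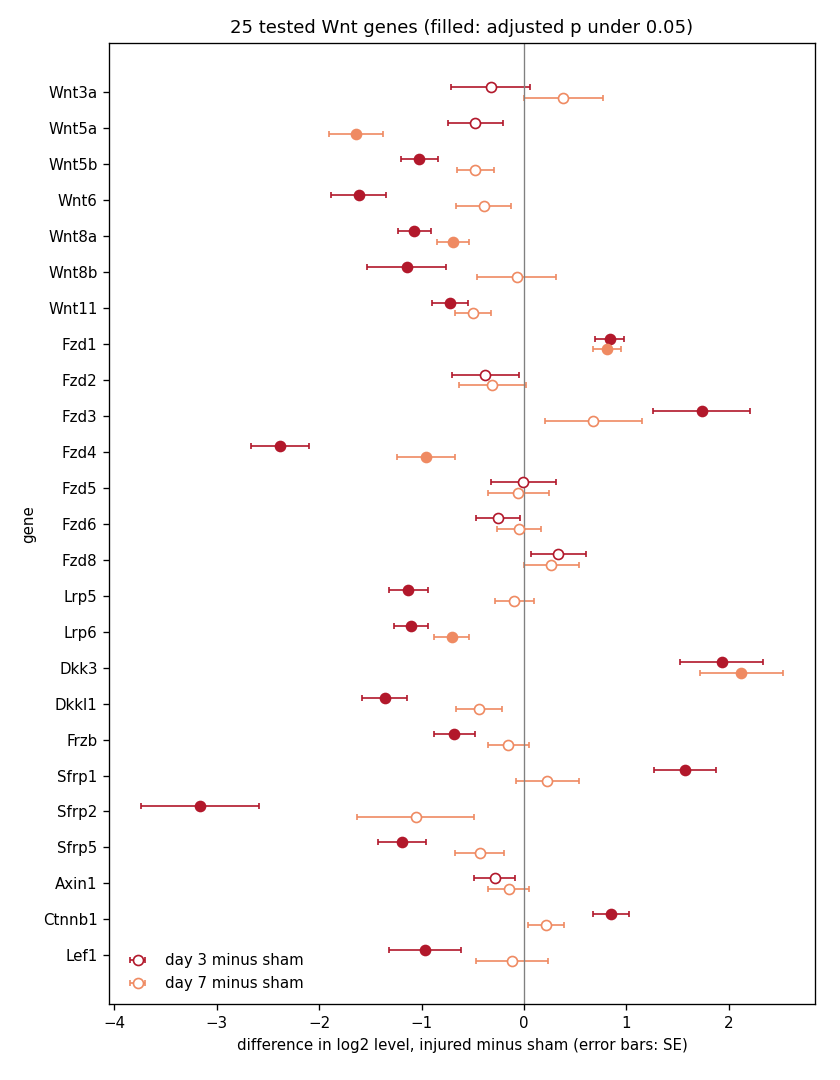
Difference in log2 level, day 3 minus sham (dark) and day 7 minus sham (light), for the 25 tested genes, with the SE of the fit as error bars and filled points where the adjusted p is under 0.05. Dkk3 and Fzd1 lie right of 0 and Fzd4 left of 0 at both days, while Sfrp1 and Sfrp2 are filled at day 3 alone. Filled points of Fzd3, Sfrp2, Dkkl1, Wnt8b and Wnt5a are descriptions, since the filter admitted these genes by groups where they are higher.

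**Figure D3:**
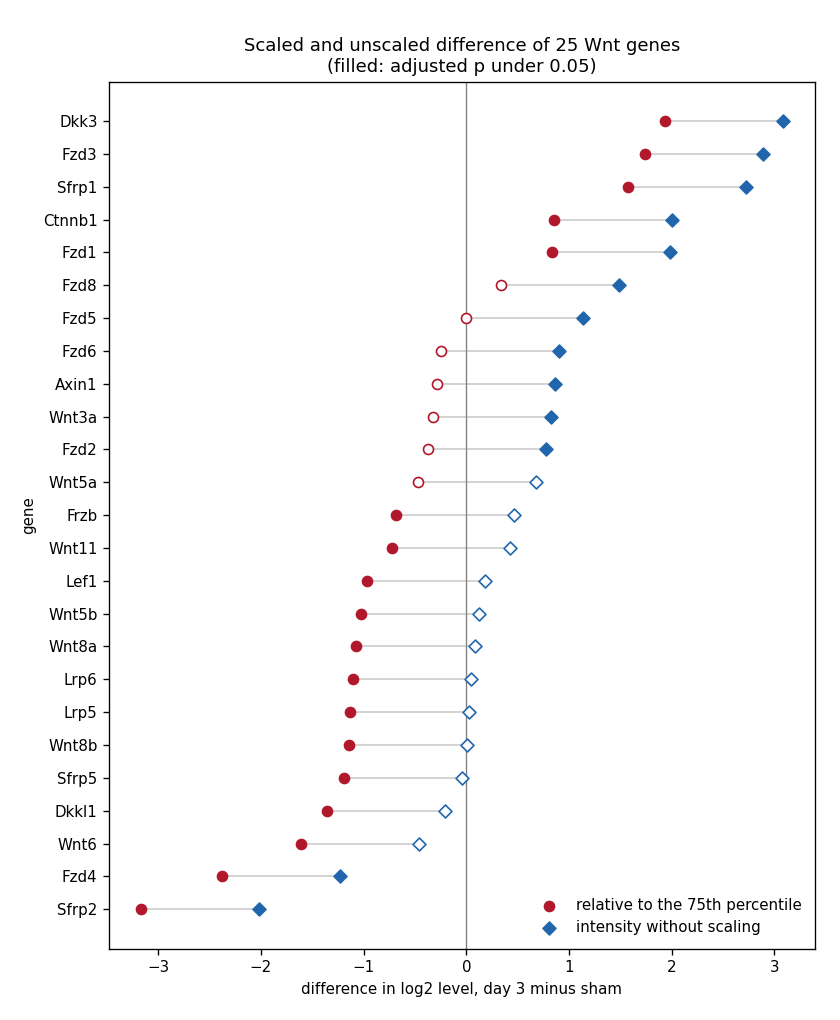
Day 3 minus sham difference of each of the 25 genes in log2 units, relative to the 75th percentile (circles) and on the unscaled intensity (diamonds), filled where the adjusted p is under 0.05. The scaling moves every gene by the same distance, so Lrp5, Lrp6 and Wnt8b sit left of 0 as circles and near 0 as diamonds, while Fzd4 and Sfrp2 stay left of 0 and Dkk3, Fzd3 and Sfrp1 right of it both ways. Filled points of genes that the filter admitted only by groups where they are higher, such as Fzd3 and Sfrp2, are descriptions.

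**Figure D4:**
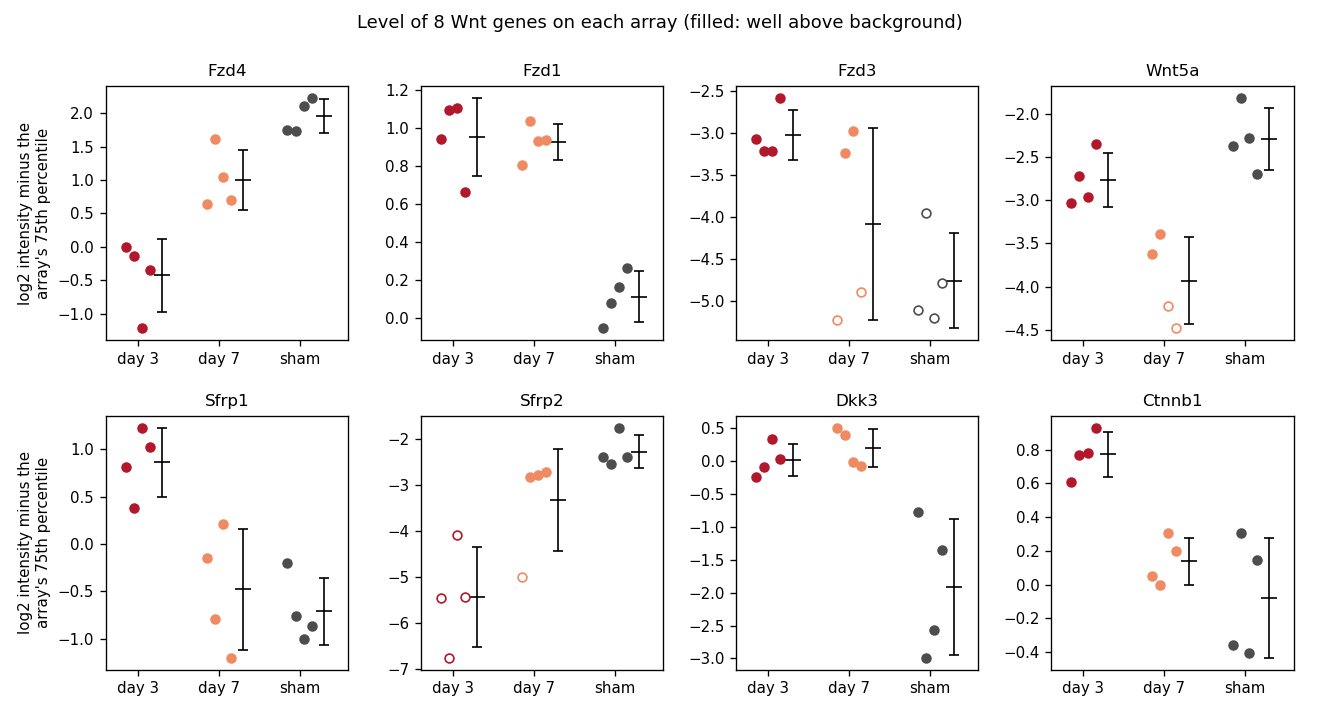
Level of 8 genes on each of the 12 arrays (log2 intensity minus the 75th percentile of the array, 1 point per array, filled where well above background), with the mean and SD of the 4 arrays beside them, for day 3, day 7 and sham. The day 3 points of Fzd4 and Sfrp2 lie below all sham points, and those of Fzd1, Fzd3, Sfrp1, Dkk3 and Ctnnb1 above them.

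Among the tested Frizzled receptors, Fzd4 had the largest difference at day 3. Fzd4 binds Wnt ligands and also norrin, a ligand needed for retinal vessels in human and mouse. Fzd4 read -0.00027, -0.14, -1.22 and -0.35 in day 3 kidneys, 0.63, 1.61, 1.05 and 0.69 in day 7 kidneys, and 1.74, 1.73, 2.11 and 2.23 in sham kidneys. The 3 groups did not overlap, with day 3 lowest, day 7 between and sham highest. The day 3 minus sham difference was -2.38 ± 0.29 (SE, 5.21-fold lower, adjusted p = 4.67e-05), and the unscaled ratio was 0.426. Day 7 was higher than day 3 by 1.43 ± 0.29 (SE, 2.69-fold higher, adjusted p = 0.00465). Day 7 was lower than sham, with a log2 difference of -0.95 ± 0.29 (SE, adjusted p = 0.0376), with an unscaled ratio of 0.802. This last call was lost under 9 of the other settings and when any of 7 arrays was left out, where the adjusted p reached 0.0992 (without day 7 replicate 1).

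Fzd1, a receptor of the same family, was higher at both days. Fzd1 read 0.94, 1.10, 1.10 and 0.66 in day 3 kidneys, 0.81, 1.03, 0.93 and 0.94 in day 7 kidneys, and -0.05, 0.08, 0.16 and 0.26 in sham kidneys. Neither injured group overlapped with sham, and the injured groups overlapped with each other. The difference from sham was 0.84 ± 0.14 (SE, 1.79-fold higher, adjusted p = 0.000373) at day 3 and 0.81 ± 0.14 (SE, 1.76-fold higher, adjusted p = 0.00316) at day 7, with unscaled ratios of 3.96 and 2.73. Between the days it was -0.02 ± 0.14 (SE, adjusted p = 0.911).

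Fzd3, which acts in planar polarity and axon growth in mice, was dim throughout. Fzd3 read -3.08, -3.22, -3.21 and -2.59 in day 3 kidneys, -5.22, -3.25, -2.98 and -4.89 in day 7 kidneys, and -5.11, -3.96, -5.20 and -4.78 in sham kidneys. It stood above background on 4 arrays at day 3, 2 at day 7 and 0 in sham, and day 3 did not overlap with sham. Since sham gave no value above background, the difference is a bound: day 3 was at least 1.88-fold higher. Fzd3 was tested only because it stood above background on all day 3 arrays, so no p is given for this difference. With a background correction by the normexp model this difference changed sign, to -0.55 on all spots and -0.014 without spots below their local background, so its direction rests on the background step. On the scaled axis no member of the class other than Fzd1, Fzd3 and Fzd4 passed at day 3 or day 7. Fzd2, Fzd5, Fzd6 and Fzd8 had log2 differences of -0.38, -0.0047, -0.25 and 0.34 at day 3 (adjusted p from 0.3 to 0.991). Without scaling they were called higher at day 3, like most genes, and not at day 7. The unscaled day 3 differences were 0.77 for Fzd2 (adjusted p = 0.0294), 1.13 for Fzd5 (adjusted p = 0.00197) and 0.90 for Fzd6 (adjusted p = 0.00441). That of Fzd8 was 1.49, with no p given, since it was above background on 3 sham arrays. Fzd7 and Fzd9 were not tested. Fzd7 was above background on 1 array at day 3, 1 at day 7 and 3 in sham, with levels from -5.25 to -4.61, from -4.31 to -3.63 and from -3.86 to -3.25.

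Fzd6, a partner of Fzd3 in planar polarity in mice, had 2 tested probes at different places of the gene, and they differed. The probe pairs of Fzd6 and of the co-receptor Lrp6 are shown because the result depends on which sequence is read, the brighter probe first, by their first 30 bases on rn4.
Fzd6, brighter (probe A_64_P109373, chr7:74592186-74592245, plus strand): gttcgctcagcttccggaactaggaaagag
Fzd6, dimmer (probe A_42_P475935, chr7:74593649-74593708, plus strand): gaatgctacagacacattgtgttgtatctt
Lrp6, brighter (probe A_64_P014434, chr4:171337902-171337961, minus strand): gaactatgaaagctgccccccttctccata
Lrp6, dimmer (probe A_64_P014437, chr4:171337138-171337197, minus strand): gagacccgttttgctaagagccatgattta
The brighter Fzd6 probe, which stood for the gene, gave -0.03, 0.10, -0.54 and -0.43 at day 3, 0.13, -0.21, 0.20 and -0.20 at day 7, and 0.02, 0.12, 0.44 and -0.48 in sham. Its groups overlapped, and its day 3 minus sham difference was -0.25 ± 0.22 (SE, adjusted p = 0.339). The dimmer probe gave -1.62, -1.93, -1.94 and -1.49 at day 3, -2.15, -2.70, -2.44 and -2.35 at day 7, and -3.42, -3.87, -3.73 and -3.83 in sham. Its 3 groups did not overlap, with day 3 highest. In the fit over all probes, its difference from sham was 1.97 ± 0.17 (SE, 3.91-fold higher) at day 3 and 1.30 ± 0.17 (SE, 2.47-fold higher) at day 7. Between day 7 and day 3 the difference was -0.66 ± 0.17 (SE, 1.58-fold lower, adjusted p = 0.0145). The dimmer probe was above background on 3 sham arrays, so day 3 and day 7 alone admitted it to the test. No p is given for its differences from sham. On the scaled axis no single direction can therefore be given for Fzd6. The unscaled day 3 to sham ratio was 1.87 for the brighter probe and 8.67 for the dimmer one, so without scaling both read higher.

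The co-receptors Lrp5 and Lrp6 bind Wnt together with a Frizzled. Lrp5 read -0.06, -0.73, -0.14 and -0.22 in day 3 kidneys, 0.98, 0.58, 0.65 and 0.77 in day 7 kidneys, and 1.25, 0.67, 0.58 and 0.86 in sham kidneys. Day 3 lay below both other groups, which overlapped. Lrp5 was lower at day 3 than in sham, with a difference of -1.13 ± 0.19 (SE, 2.19-fold lower, adjusted p = 0.000456), and higher at day 7 than at day 3 by 1.03 ± 0.19 (SE, 2.05-fold higher, adjusted p = 0.00336), relative to the 75th percentile. Its unscaled intensity ratio was 1.02 for day 3 over sham and 1.43 for day 7 over day 3. The brighter Lrp6 probe read 0.21, 0.04, 0.50 and 0.20 in day 3 kidneys, 0.69, 0.31, 0.71 and 0.80 in day 7 kidneys, and 1.66, 1.27, 1.30 and 1.11 in sham kidneys. Day 3 and day 7 each lay below sham without overlap. The differences from sham were -1.10 ± 0.17 (SE, 2.14-fold lower, adjusted p = 0.0002) at day 3 and -0.71 ± 0.17 (SE, 1.63-fold lower, adjusted p = 0.0139) at day 7, with unscaled ratios of 1.04 and 0.951. The dimmer Lrp6 probe did not pass: its levels ran from -0.60 to -0.13 at day 3, from -0.82 to -0.13 at day 7 and from -0.83 to 0.03 in sham, with differences from sham of 0.17 ± 0.21 (SE, adjusted p = 0.52) at day 3 and 0.11 ± 0.21 (SE, adjusted p = 0.773) at day 7. With the mean of both probes Lrp6 differed from sham by -0.30 at day 7 (adjusted p = 0.117), so the day 7 call rests on the brighter probe. At day 3 the call was kept with the mean of both probes, though the brighter probe alone was lower. No single direction can be given for Lrp6 at either day.

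**Figure D5:**
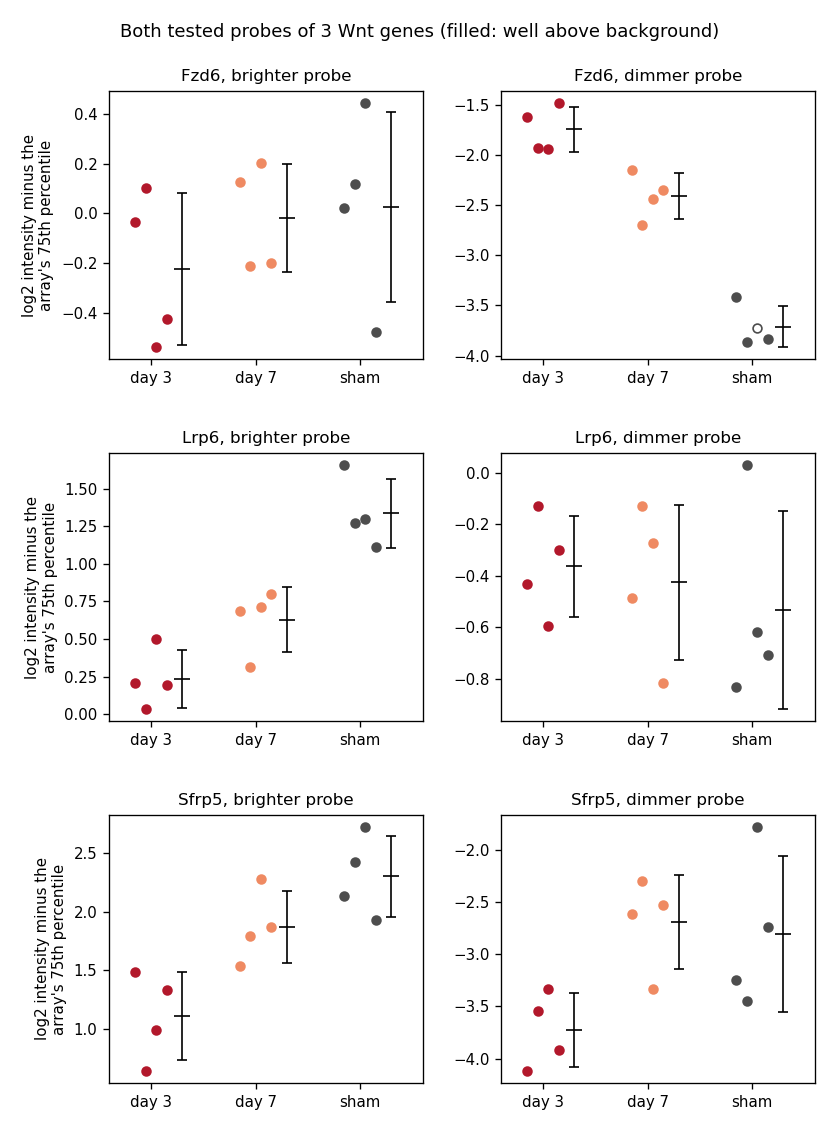
Level of both tested probes of Fzd6, Lrp6 and Sfrp5 on each of the 12 arrays (log2 intensity minus the 75th percentile of the array, filled where well above background), with the mean and SD of the 4 arrays beside them, for day 3, day 7 and sham. The dimmer Fzd6 probe falls into 3 separate groups while the brighter one overlaps, and of the Lrp6 pair the brighter probe alone sets the injured kidneys below sham.

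Among the secreted antagonists, Sfrp1 and Sfrp2 went opposite ways at day 3. Both bind Wnt ligands outside the cell. Sfrp1 read 0.81, 0.38, 1.23 and 1.03 in day 3 kidneys, -0.14, -0.79, 0.22 and -1.20 in day 7 kidneys, and -0.20, -0.76, -1.01 and -0.86 in sham kidneys. Day 3 lay above both other groups, which overlapped with each other. Sfrp1 was higher at day 3 than in sham by 1.57 ± 0.31 (SE, 2.97-fold higher, adjusted p = 0.00106), with an unscaled ratio of 6.6. At day 7 it was lower than at day 3, with a log2 difference of -1.34 ± 0.31 (SE, 2.54-fold lower, adjusted p = 0.0085), and the difference from sham was 0.23 ± 0.31 (SE, adjusted p = 0.646).

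Sfrp2 read -5.45, -6.75, -4.08 and -5.43 in day 3 kidneys, -4.98, -2.83, -2.77 and -2.71 in day 7 kidneys, and -2.39, -2.53, -1.74 and -2.39 in sham kidneys. It stood above background on 0 arrays at day 3, 3 at day 7 and 4 in sham. Day 3 and day 7 both lay below sham, and they overlapped with each other through day 7 replicate 1. The difference at day 3 is a bound: Sfrp2 was at least 5.28-fold lower than in sham, and the unscaled ratio was 0.248. No p is given here, since sham was the group that admitted Sfrp2 to the test. At day 7 it was at least 2.54-fold higher than at day 3 (adjusted p = 0.0178). This call was lost without day 3 replicate 2 (adjusted p = 0.0526) and without day 7 replicate 4 (adjusted p = 0.0527). At day 7 the difference from sham was -1.06 ± 0.57 (SE).

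Dkk3, a divergent member of the Dickkopf family that lacks the LRP binding known for Dkk1, was higher at both days. Dkk3 read -0.24, -0.09, 0.34 and 0.03 in day 3 kidneys, 0.51, 0.39, -0.01 and -0.07 in day 7 kidneys, and -0.78, -2.99, -2.56 and -1.35 in sham kidneys. Neither injured group overlapped with sham, and sham was the most spread of the groups (SD 1.03, beside 0.24 at day 3 and 0.29 at day 7). The differences from sham were 1.93 ± 0.40 (SE, 3.81-fold higher, adjusted p = 0.00167) at day 3 and 2.13 ± 0.40 (SE, 4.36-fold higher, adjusted p = 0.0052) at day 7, with unscaled ratios of 8.46 and 6.78. Between the days the difference was 0.19 ± 0.40 (SE, adjusted p = 0.733).

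Sfrp5, Frzb and Dkkl1 were lower at day 3 relative to the 75th percentile. Frzb is a secreted Wnt binder known from cartilage, and Dkkl1 is a relative of Dkk3. Sfrp5 read 1.48, 0.64, 0.99 and 1.34 in day 3 kidneys, 1.54, 1.79, 2.28 and 1.87 in day 7 kidneys, and 2.13, 2.43, 2.72 and 1.93 in sham kidneys. Frzb read 1.22, 1.37, 1.37 and 1.49 in day 3 kidneys, 1.99, 2.11, 1.53 and 1.94 in day 7 kidneys, and 2.04, 1.63, 1.93 and 2.57 in sham kidneys. Dkkl1 read -3.92, -4.27, -4.44 and -4.46 in day 3 kidneys, -2.99, -3.44, -3.71 and -3.25 in day 7 kidneys, and -2.62, -3.24, -2.52 and -3.26 in sham kidneys. In each of the 3 genes day 3 lay below sham without overlap, and day 7 overlapped with sham. Their day 3 minus sham differences were -1.19 ± 0.24 (SE, adjusted p = 0.00117), -0.68 ± 0.20 (SE, adjusted p = 0.0117) and -1.36 ± 0.22 (SE) in that order. The unscaled ratios were 0.972, 1.38 and 0.865. Day 7 was higher than day 3 for Sfrp5 by 0.76 ± 0.24 (SE, adjusted p = 0.0302) and for Dkkl1 by 0.92 ± 0.22 (SE, adjusted p = 0.0107), while the difference of Frzb was 0.53 ± 0.20 (SE, adjusted p = 0.061). The Sfrp5 call was lost with the replicate number as a block (adjusted p = 0.0519) and when any of 5 arrays was left out, with an adjusted p of up to 0.0914 (without day 3 replicate 2). The dimmer Sfrp5 probe had a day 3 minus sham difference of -0.92 ± 0.35 (SE, adjusted p = 0.0395) with overlapping groups. At day 7 the differences from sham were -0.43, -0.15 and -0.44, and none was called (adjusted p = 0.219 for Sfrp5 and 0.637 for Frzb). No p is given for Dkkl1 against sham, the group that admitted it.

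The antagonists not tested were Dkk1, Dkk2, Dkk4, Sfrp4 and Wif1. Dkk2 stood above background on 3 arrays at day 3 and on 0 at day 7 and in sham. Dkk2 read -3.07, -3.61, -3.75 and -3.12 in day 3 kidneys, -5.83, -4.12, -4.54 and -5.23 in day 7 kidneys, and -5.93, -5.94, -4.87 and -4.40 in sham kidneys. Its day 3 values lay above all others, and day 3 was at least 1.5-fold higher than sham, as a bound with no test. Dkk4 was above background on 1 array at day 3, 0 at day 7 and 2 in sham, and Wif1 on 1, 0 and 0. The probes of Dkk1 and Sfrp4 gave no array above background in any group.

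Of the 7 tested ligands none was higher at either day, and Wnt5a was the one called lower at day 7 in the unscaled values too. Wnt5a signals largely without beta-catenin, through receptors such as Ror2. Wnt5a read -3.03, -2.72, -2.96 and -2.34 in day 3 kidneys, -3.63, -3.39, -4.22 and -4.49 in day 7 kidneys, and -2.37, -1.82, -2.28 and -2.70 in sham kidneys. It was above background on 4 arrays at day 3, 2 at day 7 and 4 in sham, and the day 7 values lay below both other groups. Day 7 was lower than sham, with a log2 difference of -1.64 ± 0.27 (SE, 3.12-fold lower), and lower than day 3, with a difference of -1.17 ± 0.27 (SE, 2.24-fold lower), with unscaled ratios of 0.498 and 0.312. At day 3 the difference from sham was -0.47 ± 0.27 (SE, adjusted p = 0.148). With normexp background correction the day 7 minus sham difference was -0.62, and that between the days turned to 0.17.

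Wnt6, a ligand that works through beta-catenin in several tissues, was lower at day 3 by more than the shift of the 75th percentile. Wnt6 read -2.37, -3.17, -2.70 and -2.86 in day 3 kidneys, -0.95, -1.57, -2.16 and -1.53 in day 7 kidneys, and -1.23, -1.63, -0.82 and -0.96 in sham kidneys. Day 3 lay below both other groups. It was lower than sham, with a difference of -1.61 ± 0.27 (SE, 3.06-fold lower, adjusted p = 0.000365) and day 7 was higher than day 3 by 1.22 ± 0.27 (SE, 2.33-fold higher, adjusted p = 0.00704), with unscaled ratios of 0.725 and 1.63. The unscaled differences were -0.46 (adjusted p = 0.159) and 0.71 (adjusted p = 0.0634) on the log2 scale, so neither passed.

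Wnt11 and Wnt5b are linked to signals outside the beta-catenin branch. Wnt11 read -2.15, -2.23, -2.34 and -2.18 in day 3 kidneys, -1.97, -1.87, -2.00 and -2.17 in day 7 kidneys, and -1.62, -1.51, -1.01 and -1.88 in sham kidneys. Wnt5b read -3.26, -3.42, -3.27 and -3.32 in day 3 kidneys, -2.48, -2.83, -3.08 and -2.69 in day 7 kidneys, and -2.10, -2.73, -2.02 and -2.32 in sham kidneys. In both genes day 3 lay below sham without overlap. The day 3 minus sham differences were -0.72 ± 0.17 (SE, adjusted p = 0.00397) for Wnt11 and -1.02 ± 0.18 (SE, adjusted p = 0.000529) for Wnt5b, with unscaled ratios of 1.35 and 1.09. The Wnt5b difference between day 7 and day 3 was 0.55 ± 0.18 (SE, adjusted p = 0.0368), a call lost under several settings and when any of 7 arrays was left out.

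Wnt8a and Wnt8b are best known from the patterning of the early embryo. Wnt8a read -2.22, -2.52, -2.73 and -2.52 in day 3 kidneys, -1.89, -2.01, -2.39 and -2.17 in day 7 kidneys, and -1.30, -1.47, -1.32 and -1.62 in sham kidneys. Wnt8b read -4.11, -4.13, -4.45 and -4.57 in day 3 kidneys, -3.39, -2.13, -4.22 and -3.23 in day 7 kidneys, and -3.41, -3.24, -2.38 and -3.65 in sham kidneys. Wnt8a at day 3 and day 7 lay below sham without overlap, and Wnt8b did so at day 3. Wnt8a differed from sham by -1.07 ± 0.16 (SE, adjusted p = 0.000164) at day 3 and -0.69 ± 0.16 (SE, adjusted p = 0.0122) at day 7, and Wnt8b by -1.15 ± 0.39 (SE) at day 3. Their unscaled day 3 ratios were 1.06 and 1, and that of Wnt8a at day 7 was 0.963. Wnt3a, a strong activator of the beta-catenin branch, gave -0.33 ± 0.39 (SE, adjusted p = 0.492) at day 3 and 0.39 ± 0.39 (SE, adjusted p = 0.523) at day 7. Its unscaled ratios to sham were 1.77 and 2.03, and without scaling it was called higher at both days. No p is given for these, since Wnt3a was above background on 3 sham arrays and was admitted by day 3 and day 7.

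The 11 ligands that were not tested were Wnt1, Wnt2b, Wnt3, Wnt4, Wnt7a, Wnt7b, Wnt9a, Wnt9b, Wnt10a, Wnt10b and Wnt16. Wnt4, which is required for nephron formation in mice, was above background on 2 arrays at day 3, 1 at day 7 and 2 in sham, with levels from -4.76 to -4.23, from -4.52 to -3.25 and from -5.49 to -3.74. Wnt7b, needed for the medulla and its collecting ducts in mice, was above background on 2, 2 and 0 arrays. The better of the Wnt9b probes was above background on 3, 3 and 2 arrays, and Wnt9a on 2, 2 and 3. Wnt1 stood above background on 1 array in each group, Wnt2b on 1 sham array alone, Wnt3 on 1 array at day 3 and 2 at day 7, and Wnt7a on 1 array at day 3 and 2 in sham. Wnt10a was above background on 3 arrays at day 3 and on 0 of the others, and day 3 was at least 1.15-fold higher than sham as a bound, though its values from -4.71 to -2.29 at day 3 were widely spread. At this signal these ligands were not tested, which does not show that they did not differ.

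Of the intracellular genes, Ctnnb1 passed both ways. Ctnnb1 read 0.61, 0.77, 0.78 and 0.93 in day 3 kidneys, 0.05, -0.0016, 0.30 and 0.20 in day 7 kidneys, and -0.36, 0.30, -0.40 and 0.14 in sham kidneys. Day 3 lay above both other groups, which overlapped. Day 3 was higher than sham by 0.85 ± 0.18 (SE, 1.8-fold higher, adjusted p = 0.00162), with an unscaled ratio of 4, and day 7 was lower than day 3, with a log2 difference of -0.63 ± 0.18 (SE, 1.55-fold lower, adjusted p = 0.0196). The second call was lost without day 3 replicate 4 (adjusted p = 0.0609) and without day 7 replicate 2 (adjusted p = 0.0516). The difference between day 7 and sham was 0.22 ± 0.18 (SE, adjusted p = 0.422). These are RNA levels, and beta-catenin is known to be governed largely through the stability of its protein.

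Axin1, the scaffold of the complex that destroys beta-catenin, did not pass in any comparison. Axin1 read -0.17, -0.16, -0.17 and -0.11 in day 3 kidneys, -0.04, 0.05, -0.26 and 0.20 in day 7 kidneys, and -0.08, -0.17, 0.80 and -0.02 in sham kidneys. Sham replicate 3 stood apart, and the groups overlapped. The difference was -0.28 ± 0.20 (SE, adjusted p = 0.245) at day 3 and -0.15 ± 0.20 (SE, adjusted p = 0.654) at day 7. Without scaling Axin1 was higher at day 3 by 0.87 (adjusted p = 0.000561). Axin2, its inducible relative and a common readout of the beta-catenin branch, was above background on 3 arrays at day 3 and on 1 array each at day 7 and in sham. Axin2 read -3.72, -3.59, -5.96 and -3.63 in day 3 kidneys, -3.73, -5.69, -2.76 and -5.30 in day 7 kidneys, and -3.62, -5.99, -4.91 and -5.87 in sham kidneys. The groups overlapped, and Axin2 was not tested.

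Lef1 and Tcf7 are DNA-binding partners of beta-catenin. Lef1 read -2.84, -2.76, -3.05 and -3.02 in day 3 kidneys, -1.85, -1.72, -2.74 and -1.96 in day 7 kidneys, and -2.35, -2.82, -0.95 and -1.68 in sham kidneys. Day 3 overlapped with sham. The day 3 minus sham difference was -0.97 ± 0.35 (SE, adjusted p = 0.0331) with an unscaled ratio of 1.14, and the call was lost when any of 6 arrays was left out. Tcf7 read -4.13, -4.73, -4.59 and -4.41 in day 3 kidneys, -6.11, -4.34, -5.16 and -5.46 in day 7 kidneys, and -4.32, -4.79, -4.96 and -4.47 in sham kidneys. Tcf7 was above background on 2 arrays at day 3 and on 0 of the others, its groups overlapped, and it was not tested. Lef1 had 3 probes, of which 1 was tested. Another of them reads nearly the same stretch of chromosome 2, and this pair is shown whole because the sequences overlap by 52 bases and differ at 4 of these, which are in capitals.
Lef1, tested (A_64_P166158, chr2:228659730-228659789, plus strand): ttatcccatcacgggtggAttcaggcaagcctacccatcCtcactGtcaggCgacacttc
Lef1, not tested (A_64_P052007, chr2:228659738-228659797, plus strand): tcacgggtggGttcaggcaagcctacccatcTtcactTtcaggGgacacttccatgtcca
Counted from 1 at the 5′ end of the tested probe, with its base first, the differences were A19G, C40T, G46T, C52G. The probe that was not tested read -3.76, -3.68, -3.88 and -3.82 in day 3 kidneys, -2.93, -2.80, -3.80 and -3.03 in day 7 kidneys, and -4.02, -3.93, -1.79 and -2.97 in sham kidneys. It was above background on 3 arrays at day 3, 3 at day 7 and 2 in sham.

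By day 7 fewer members differed from sham. Dkk3 and Fzd1 remained higher, and Wnt5a, Fzd4, Wnt8a and the brighter probe of Lrp6 were lower. These were 6 of 25, or 24%, beside 18.8% of all genes. The 2 higher members were 8%, beside 8.21% of all genes, and the 4 lower ones 16%, beside 10.6%. With 25 genes these shares lie close to those of all genes. The member median was -0.15, and that of all genes -0.07. Without scaling, 6 members passed (5 higher and 1 lower), beside 37.8% of all genes, of which 96.3% were higher. Among the 6 scaled calls, Dkk3 and Fzd1 passed both ways in the same direction. Wnt5a was called lower both ways too, but day 3 and sham, where it is higher, had admitted it, so its call is a description. Scaling the arrays to the same total signal left 3 calls, 2 higher and 1 lower, beside 22.4% of all genes.

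Between the days, 10 of 25 members passed, or 40%, beside 31.4% of all genes. Fzd4, Sfrp2, Sfrp5, Dkkl1, Lrp5, Wnt5b and Wnt6 were higher at day 7 than at day 3, which is 28%, beside 18.0% of all genes. Sfrp1, Ctnnb1 and Wnt5a were lower, which is 12%, beside 13.4%. The member median was 0.38, and that of all genes 0.05. Fzd4, Sfrp2, Sfrp1 and Ctnnb1 passed in the same direction without scaling. Wnt5a was called in the same direction too, though day 3, where it is higher, was among the groups that had admitted it. Without scaling 6 members passed, 2 higher and 4 lower, beside 35.6% of all genes, of which 11.1% were higher. This comparison shares its arrays with both comparisons against sham, so the 3 are not independent of each other. On each of the 3 slides the sign was the same for all 18, 6 and 10 called members at day 3 against sham, at day 7 against sham and between the days, in that order. Over all called genes this held for 98.3%, 99.2% and 98.2%.

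Markers of several cell types moved at the same times. Their counts stand beside the shares of all genes, of which 24.2% were higher and 33.1% lower than in sham at day 3. At day 7 these shares were 8.21% and 10.6%, and 18.0% of all genes were higher at day 7 than at day 3. At day 3 all 9 tested fibroblast and myofibroblast genes were higher than in sham, with a mean level from 1.74 to 2.29, beside 0.08 to 0.55 in sham; at day 7, 7 of 9 were higher, at 1.13 to 1.62. At day 3 and at day 7, 4 of 6 endothelial genes were lower, with mean levels from -0.74 to -0.50 at day 3, from -0.64 to 0.29 at day 7 and from 0.61 to 1.01 in sham. All 9 collecting duct genes were lower at day 3 and higher at day 7 than at day 3, with mean levels from -0.90 to -0.33 at day 3, from 1.51 to 1.87 at day 7 and from 0.74 to 1.64 in sham. Of the 5 podocyte genes 3 were lower at day 3 and 2 at day 7, and of the 8 macrophage genes 5 and 2 were higher. All 6 proliferation genes were higher at both days. Of the proximal tubule genes 6 of 8, and of the thick ascending limb genes 4 of 4, were lower at day 3, and the same numbers were higher at day 7 than at day 3. Of 7 lymphocyte genes 3 were higher and 1 lower at day 3. Of 3 tested adrenal genes 1 was lower at day 3, and neither of the 2 tested adipose genes passed. Of the defining markers, Top2a, Bub1 and Lum were not above background on any sham array, and Postn, Cd163, Mrc1 and Elf5 were not tested. These marker levels are all scaled, and without scaling every day 3 minus sham difference reads 1.15 higher. The median scaled difference of the endothelial genes at day 3 was -1.39, so most of it rests on the scaling. The medians were -1.63 for collecting duct, -2.08 for podocyte, -2.22 for thick ascending limb and -2.37 for proximal tubule genes. The part of these cell types in the changes of the Wnt genes was not tested.

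Beyond the members, 92 further genes of the pathway were listed, and 67 of them were tested. At day 3, 19 were higher and 18 lower than in sham, at day 7, 9 and 4, and 7 were higher and 9 lower at day 7 than at day 3. These are 55.2%, 19.4% and 23.9% of the 67, beside 57.3%, 18.8% and 31.4% of all genes, so the list stood close to or below the share of all genes. By direction, 24.2% of all genes were higher and 33.1% lower at day 3, and 8.21% and 10.6% at day 7. Between day 7 and day 3, 18.0% were higher and 13.4% lower. The counts of each sublist below stand beside these shares, and each sublist is small. Scaling to the total signal moved the split at day 3 to 28 higher and 7 lower, and at day 7 to 16 and 3, so the balance of directions rests on the scaling.

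Among genes of Wnt secretion and the cell surface, 2 of 10 were higher and 4 lower at day 3, and 4 were higher and 0 lower at day 7. Tpbg, a surface protein that inhibits Wnt signals in zebrafish, was higher than in sham by 4.84 ± 0.52 at day 3 and 2.73 ± 0.52 (adjusted p = 0.00542) at day 7. It stood above background on 4 arrays at day 3, 3 at day 7 and 1 in sham. At day 7 it was lower than at day 3, with a difference of -2.11 ± 0.52. Day 3 alone admitted Tpbg to the test, so no p is given for its differences from day 3. Wls, which carries Wnt proteins to the cell surface, was higher at day 3 by 0.93 ± 0.18 (adjusted p = 0.00115). Sost, a secreted LRP antagonist, was lower, with a difference of -1.54 ± 0.51 (adjusted p = 0.0212), or -0.39 without scaling. At day 7 the glypican Gpc3 was higher than in sham by 1.52 ± 0.28 (adjusted p = 0.00432) and the antagonist Sostdc1 by 0.78 ± 0.18 (adjusted p = 0.0143). Both were also higher than at day 3, by 1.05 ± 0.28 (adjusted p = 0.0157) and 1.42 ± 0.18 (adjusted p = 0.000667).

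In the destruction complex and its partners, 3 of 14 genes were higher and 3 lower at day 3. Dact3, which binds dishevelled, was higher by 1.30 ± 0.29 and Tnks2, which marks axin for destruction, by 0.76 ± 0.19 (adjusted p = 0.00441). No p is given for Dact3, which was above background on 4 arrays at day 3 and 3 in sham, so sham did not admit it. Amer1, which brings Apc to the membrane, was lower, with a difference of -1.002 ± 0.18 (adjusted p = 0.000594), or 0.15 without scaling. Gsk3a, a kinase of the complex, was the 1 gene that passed at day 7, lower, with a difference of -0.56 ± 0.17 (adjusted p = 0.0377) and 0.08 without scaling. Dvl1 and Amer1 were higher at day 7 than at day 3 by 0.53 ± 0.16 (adjusted p = 0.0248) and 0.51 ± 0.18 (adjusted p = 0.047), and 0.01 and -0.0037 without scaling.

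Of 13 nuclear partners, 3 were higher and 4 lower at day 3. The Groucho corepressors, which hold Tcf and Lef targets silent, moved in opposite directions. Tle1 was lower, with a difference of -2.23 ± 0.27 (adjusted p = 4.98e-05), and Tle3 higher by 1.83 ± 0.32. Tle2 was lower, with a difference of -0.91 ± 0.33 (adjusted p = 0.0343), or 0.24 without scaling. At day 7 Tle1 was still lower than in sham, at -1.24 ± 0.27 (adjusted p = 0.0104), and Tle3 higher, by 1.34 ± 0.32. Tle3 was above background on 3 sham arrays and was admitted by day 3 and day 7, so it has no p against sham. Tle1 was higher at day 7 than at day 3 by 0.99 ± 0.27 (adjusted p = 0.018).

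Of 12 tested genes reported as targets of the beta-catenin branch, 7 were higher and 2 lower at day 3, beside 24.2% and 33.1% of all genes. At day 7, 2 were higher and 1 lower than in sham, beside 8.21% and 10.6%. Between the days, 1 was higher and 5 lower at day 7, beside 18.0% and 13.4%. Birc5, a mitotic survival protein, was higher at day 3 by 2.87 ± 0.29 (adjusted p = 1.71e-05) and Myc, a growth factor-induced regulator, by 2.40 ± 0.31 (adjusted p = 6.71e-05). Both were lower at day 7 than at day 3, with differences of -2.22 ± 0.29 (adjusted p = 0.000667) for Birc5 and -1.61 ± 0.31 (adjusted p = 0.00364) for Myc. At day 7 the Notch ligand Jag1 was higher than in sham by 1.42 ± 0.18 (adjusted p = 0.000757) and the hyaluronan receptor Cd44 by 0.89 ± 0.25 (adjusted p = 0.0293), while the cell cycle gene Ccnd1 was lower, with a difference of -1.34 ± 0.33 (adjusted p = 0.0169). These genes answer to many other signals, and Birc5 is also a gene of dividing cells. The 6 proliferation markers were all called higher at both days, Top2a and Bub1 among them with no sham array above background. The part of cell division or of the beta-catenin branch in these changes was not tested.

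Of 18 genes of the branches outside beta-catenin, 4 were higher and 5 lower at day 3, 2 higher and 1 lower at day 7, and 1 higher and 3 lower at day 7 than at day 3. The calcium-dependent kinases Camk2b and Camk2d differed in direction. Camk2b was lower, with a difference of -2.16 ± 0.31 (adjusted p = 0.000141) at day 3 and -2.49 ± 0.31 (adjusted p = 0.000684) at day 7. Camk2d was higher, by 1.90 ± 0.32 at day 3 and 1.29 ± 0.32 at day 7. No p is given for Camk2d, which was above background on 3 sham arrays and was admitted by day 3 and day 7. Ror2, a receptor of Wnt5a, was higher at day 7 by 1.32 ± 0.38 (adjusted p = 0.0334). Prickle1, a planar polarity gene, was above background on 4 arrays at day 3, 0 in sham and 0 at day 7. It was at least 1.36-fold higher at day 3 than in sham and at least 1.29-fold lower at day 7 than at day 3, with no p given because day 3 alone admitted it to the test. Vangl1, of the same process, was lower at day 7 than at day 3, with a difference of -0.99 ± 0.22 (adjusted p = 0.00817), and the calcium-dependent factor Nfatc2 higher by 0.79 ± 0.28 (adjusted p = 0.0473), or 0.28 without scaling.

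Several genes of the pathway are themselves targets of Tcf and Lef proteins, so the 250 bases before the transcription start were searched for CTTTGAT and CTTTGAA on both strands. The motifs share their first 6 letters, so no place on a strand holds both. Sequences came from RefSeq (build GRCr8) and were at hand for 31 of the 45 members. Of these, 4 held a match (12.9%), beside 7.58% of 27457 rat promoters of the same length. The matches are shown with their surroundings on the strand of the gene, the motif in capitals. The first base of the motif lies 232 and 132 bases before the start in Axin2, 96 in Dkk1, 189 in Dkkl1 and 140 in Wnt8a.
Axin2, window around CTTTGAA (chr10:94398538-94398574, plus strand): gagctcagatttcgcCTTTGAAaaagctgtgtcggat
Axin2, window around CTTTGAT (chr10:94398638-94398674, plus strand): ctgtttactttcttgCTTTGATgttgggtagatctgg
Dkk1, window around CTTTGAA (chr1:237798725-237798761, minus strand): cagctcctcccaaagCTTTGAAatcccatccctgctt
Dkkl1, window around CTTTGAT (chr1:104835879-104835915, minus strand): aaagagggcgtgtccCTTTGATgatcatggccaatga
Wnt8a, window around CTTTGAA (chr18:26411678-26411714, plus strand): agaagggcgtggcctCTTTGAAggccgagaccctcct
Axin2 and Dkk1 were not tested, and Dkkl1 and Wnt8a were lower at day 3 relative to the 75th percentile. A match is a description of these letters and not a measured binding site.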

How the data were processed

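The members, the pathway list and the marker lists were chosen with earlier results of these data known. The deposited files give, per spot, linear intensity after background subtraction and detrending (Agilent Feature Extraction 9.5.1.1, per the file headers), the spot mean and local background intensity, and flags of other kinds (above background, saturated, outlier) per the file headers. The submitters' value table holds log2 values, deposited with each probe centred on its median. The labels name a labelling kit made for DNA, although RNA was extracted. Spots of 1 probe were averaged, outlier spots left out, and log2 of the signal minus the array's 75th percentile was taken. The brightest tested probe stood for a gene. limma 3.58.1 in R 4.3.3 fitted 3 group means over 12 arrays and 18510 genes (21062 probes), with Benjamini-Hochberg adjustment over all genes, a threshold of 0.05 and two-sided tests. Each member that passed, and the fixed intracellular and LRP genes, are given on every array, and of each pathway list the 3 genes with the largest change among those that passed, except for 1 item that is not reported here. A fold against a group not above background is a bound against the lowest signal well above background, as means of log2 values. Precision is limited by 4 arrays per group. Alternatives were background, scaling, filter, probe rule, blocks, fit and single arrays left out; 2 of them, no scaling and members on all 12 arrays, were chosen after seeing the data.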

Additional observations from a re-analysis of the deposited data

Results flagged for a closer look

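2 of the 60 groups of 4 values (20 genes with values on every array, 3 groups each) held a sample far from the others by Dixon's criterion, where chance gives about 1 in 20. Axin1 read 0.80 in sham replicate 3, while the other 3 sham arrays read -0.17 to -0.02. Sfrp2 read -4.98 in day 7 replicate 1, where it was not above background, while the other 3 day 7 arrays read -2.83 to -2.71.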

How the results depend on the processing

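Over 28 settings, 1533 of 1665 values for 20 tested genes kept their side of the threshold, 95 lost the call in the same direction, 24 gained one, and 13 turned against a call or to a call. Over all, 53 values changed sign, 42 of them for differences that had not passed. With normexp background correction 4 members passed at day 3 (2 higher and 2 lower), 0 at day 7 and 0 between the days in limma, beside 17.1%, 0.492% and 0.859% of all genes; at an unadjusted p under 0.05 they were 15, 2 and 6. On 6 arrays up to 25 spots lay below their local background, and without these the numbers were 20, 6 and 13, beside 64.2%, 19.0% and 42.4%. Normexp turned Fzd3 at day 3 to -0.55 (-0.014 without those spots) and Wnt5a between the days to 0.17. Total signal scaling left 3 members at day 7 (all-gene median 0.17). Without scaling, chosen after seeing the data, 6 passed between the days (2 higher and 4 lower), and day 3 differences turned to 0.87 for Axin1, 0.47 for Frzb, 0.18 for Lef1, 0.022 for Lrp5, 0.050 for Lrp6, 0.43 for Wnt11, 0.13 for Wnt5b, 0.081 for Wnt8a and 0.0044 for Wnt8b, and the day 7 difference of Axin1 to 0.49, as a common shift of all genes on an array gives. Of the 25 members, 14 changed sign at day 3 without scaling (to 0.0044 to 1.13), 13 at day 7 (to 0.14 to 0.59) and 7 between the days (to -0.45 to -0.12). Above background on at least 1 array were 38 members at day 3 and 33 at day 7. Leaving out single arrays gave 16 to 18 members at day 3, 5 to 7 at day 7, 7 to 14 between the days (14 without day 7 replicate 3 or sham replicate 3), and 21 to 25, 20 to 23 and 22 to 25 above background at day 3, at day 7 and in sham. The replicate numbers do not pair the samples (correlations of deviations from -0.331 to 0.142 over 12 pairs, with 6 of 24 best matches sharing a number). With the replicate number as a block 17, 5 and 8 members passed, beside 54.7%, 13.3% and 25.3% of all genes, and 35, 11 and 13 of the pathway list. Without a filter on dim probes, 26, 5 and 13 of 45 members passed, beside 50.8%, 9.6% and 20.1% of all genes. The cause of these changes was not tested where the setting itself does not give it. Weak signal limits 11 of the 18 ligands, which were not tested.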
